A study of Mus musculus with 10 samples.

Results

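Creatine kinases and the genes around them carry high-energy phosphate through the heart. The 7 genes described here are the cytosolic creatine kinases Ckm and Ckb, the mitochondrial creatine kinases Ckmt1 and Ckmt2, the creatine transporter Slc6a8, the adenylate kinase Ak1 and the AMP deaminase Ampd3. They were taken by gene name from the 55401 genes of each deposited table, and 6 of the 7 were expressed highly enough to be tested. The LV of 5 nAAC mice was compared with the LV of 5 sham mice at 4 weeks of age, with 1 RNA sequencing library per mouse. All 10 mice were wild type (WT, on a C57BL/6 background) and were raised with their mothers on breast milk. The nAAC mice had a neonatal ascending aorta constriction, in which the vessel leaving the LV is narrowed by surgery soon after birth so that the LV pumps against a raised pressure, and the sham mice had sham surgery. Male and female pups were allocated at random, and the labels give no sex per sample. The groups were not balanced in Xist, an RNA of female cells, with a median of 16.6 FPKM in nAAC and 0.0168 FPKM in sham mice. The samples were pieces of whole LV tissue, in which fewer cells of a type and less RNA per cell cannot be told apart.

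Creatine kinase moves a phosphate group between ATP and creatine. In cardiomyocytes the mitochondrial enzyme charges creatine next to the site of ATP production, phosphocreatine diffuses to the myofibrils and ion pumps, and the cytosolic enzyme there returns the phosphate to ADP. Ckm encodes the muscle-type cytosolic subunit and Ckb the brain-type subunit, which is prominent in the fetal heart and gives way to the muscle type as the heart matures. Ckmt2 is the mitochondrial form of striated muscle and Ckmt1 that of most other tissues. Cardiomyocytes make little creatine and import it through Slc6a8. Adenylate kinase recovers ATP from ADP with AMP as the other product, and AMP deaminase removes AMP as IMP.

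Ckb and Ckm are the pair that the ratio of fetal to adult creatine kinase rests on, and Ckmt2 is the most abundant of the 7 transcripts, so the sequences before their start sites are shown. They are RefSeq promoter sequences of build GRCm38.p6, read 5′ to 3′ on the strand of the gene, and 6 of the 7 genes had an entry (12 windows in all). Each window began 250 bases before a start site and ran 50 bases past it, and only the bases before the first annotated exon within the window are printed. These are 250 bases for Ckb and Ckmt2 and the first 181 for Ckm, whose bases nearest the start site are not shown. Capitals mark matches on either strand to 3 motifs. The first is CANNTG, the E-box that myogenic factors bind. Another is TATAAA, which positions the start of transcription in many tissue-specific genes, and the last is CCAAT, a common element near start sites. The sequence before Ckb lies at chr12:111672339-111672588 (minus strand), directly upstream of the gene. The sequence before Ckm lies at chr7:19410844-19411024 (plus strand), within an intron of a longer noncoding Ckm transcript and upstream of the coding transcripts. The sequence before Ckmt2 lies at chr13:91876886-91877135 (minus strand), directly upstream of the gene.
Ckb: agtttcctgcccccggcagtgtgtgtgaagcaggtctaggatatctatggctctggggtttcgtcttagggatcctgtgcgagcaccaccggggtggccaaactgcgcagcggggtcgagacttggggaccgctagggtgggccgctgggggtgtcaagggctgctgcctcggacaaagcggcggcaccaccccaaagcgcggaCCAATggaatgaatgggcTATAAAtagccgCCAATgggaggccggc
Ckm: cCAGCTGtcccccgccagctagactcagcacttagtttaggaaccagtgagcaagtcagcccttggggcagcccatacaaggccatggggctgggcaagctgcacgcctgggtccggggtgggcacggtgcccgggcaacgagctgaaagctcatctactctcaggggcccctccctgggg
Ckmt2: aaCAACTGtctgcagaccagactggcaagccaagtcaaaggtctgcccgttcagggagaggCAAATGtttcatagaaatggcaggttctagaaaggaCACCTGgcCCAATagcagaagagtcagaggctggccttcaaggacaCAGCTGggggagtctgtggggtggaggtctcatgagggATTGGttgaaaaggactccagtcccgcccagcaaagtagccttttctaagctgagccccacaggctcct
The Ckb window held TATAAA at -28 from the start site and CCAAT at -46 and -16, with no CANNTG. The TATAAA match overlapped a match to the MEF2 motif, the binding motif of a muscle transcription factor, at -29. The Ckm window held CANNTG at -249 and none of the other motifs. The Ckmt2 window held CANNTG at -248, -189, -153 and -107 and CCAAT at -145 and -69. Of all 32851 promoter windows of the same length, 72.3% held CANNTG, 13.6% TATAAA, 37.4% CCAAT and 3.19% the MEF2 motif. GC content was 63.0% in the Ckb window, 64.7% in the Ckm window and 53.7% in the Ckmt2 window, against a median of 52.7% over all windows. These matches describe the letters in the window and no factor binding was measured.

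Values are FPKM as deposited, a level per length of transcript and per depth of library. Depth, estimated from the ratio of FPKM to coverage, was 4.86 to 6.82 gigabases in nAAC libraries and 5.06 to 5.24 gigabases in sham libraries. All 12 cardiomyocyte markers were expressed in every mouse at a level that allowed testing, with Actc1 (cardiac actin) at 4786 ± 599 FPKM in nAAC and 3155 ± 412 FPKM in sham mice and Myl2 (ventricular myosin light chain) at 3654 ± 1187 and 3668 ± 1763 FPKM (mean ± SD, n = 5 each). Of the 10 skeletal muscle markers, 7 stayed below 1 FPKM in every mouse and Myh4 (a fast skeletal myosin) was listed at 0 in all mice. The 1 tested gene of this list, Mybpc2 (a fast-type myosin binding protein), rose from 1.40 ± 0.778 FPKM in sham to 22.4 ± 7.63 FPKM in nAAC mice (SD, n = 5 each, log2 FC 3.26, adjusted p = 1.87e-06, limma). The sham replicates 4 and 5 stood apart from the other sham mice on the principal components, and 33.7% and 38.3% of their TPM came from the mitochondrial genome, against 46.5 to 49.8% in the other 3 sham mice and 32.8 to 39.9% in the nAAC mice. Some results are therefore also given without these libraries. The log2 FC is on the log2(FPKM + 1) scale, which understates the change of low genes. Its median over the 11867 tested genes was 0.22, so members are also given relative to that median.

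Of the 6 tested genes, 3 rose in nAAC mice at an adjusted p below 0.05, namely Ckb, Slc6a8 and Ampd3, and none fell. Over all tested genes 27.1% rose and 4.6% fell at this threshold. Ckb was the 1 gene of the 6 that was a DEG, with an absolute log2 FC also above 1, against 5.01% of all genes as DEGs in the higher direction and 0.893% in the lower direction. The groups did not overlap in Ckb, Slc6a8 and Ampd3, with all nAAC values above all sham values, and in 0 of the 6 did they lie apart in the other direction. Over all tested genes these shares were 18.9% and 3.46%. The median log2 FC of the 6 genes was 0.21, beside 0.22 for all genes. Ckb and Slc6a8 lay above the median of all genes, and the abundant adult isoforms Ckm and Ckmt2 lay below it.

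**Figure D1:**
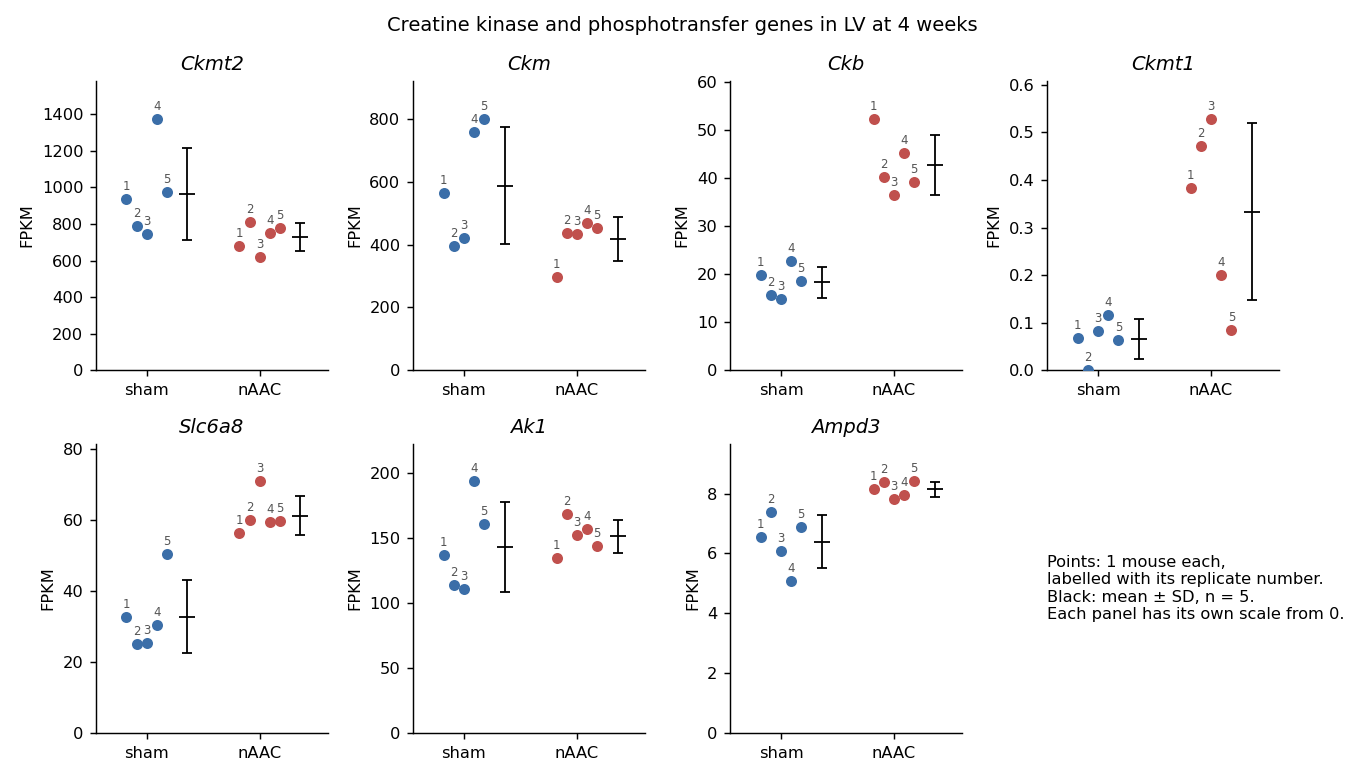
FPKM of the 7 genes (y axis, each panel on its own linear scale from 0) in the LV of sham and nAAC mice (x axis), with 1 point per mouse labelled by its replicate number and black bars for the mean ± SD (n = 5). Ckb, Slc6a8 and Ampd3 are higher in every nAAC mouse than in every sham mouse, while the groups overlap for Ckmt2, Ckm, Ckmt1 and Ak1.

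Ckb (ENSMUSG00000001270, chr12:111669361-111672338, minus strand) had the largest log2 FC of the 6 tested genes. Its FPKM was 52.3, 40.1, 36.3, 45.2 and 39.1 in nAAC replicates 1 to 5 and 19.9, 15.7, 14.7, 22.6 and 18.5 in sham replicates 1 to 5. The lowest nAAC mouse lay well above the highest sham mouse. The means were 42.6 ± 6.29 and 18.3 ± 3.20 FPKM (SD, n = 5 each), which gave a log2 FC of 1.18 (SE 0.14, 95% interval 0.87 to 1.49, adjusted p = 5.58e-05, limma) and 0.96 above the median of all genes. Ckb ranked 407 of the 11867 genes by log2 FC. Its spread was similar in the groups, with a coefficient of variation of 14.8% in nAAC and 17.5% in sham mice. It rose under every alternative tried, between 0.91 with median-ratio scaling and 1.36 in TPM. With median-ratio scaling it thus missed the fold threshold for a DEG.

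Ckm (ENSMUSG00000030399, chr7:19404776-19422841, plus strand), the main cytosolic isoform of the adult heart, did not pass the test. Its FPKM was 296, 438, 435, 467 and 453 in nAAC replicates 1 to 5. In sham replicates 1 to 5 it was 564, 395, 421, 758 and 800. The groups overlapped, since sham replicates 2 and 3 lay among the nAAC mice and only sham replicates 1, 4 and 5 lay above them all. The means were 418 ± 69.3 and 588 ± 187 FPKM (SD, n = 5 each), with a log2 FC of -0.45 (SE 0.22, 95% interval -0.93 to 0.03, adjusted p = 0.137, limma). Relative to the median of all genes the difference was -0.67, and Ckm ranked 11344 of 11867. Scaling decided the call, since with median-ratio scaling the log2 FC was -0.73 (adjusted p = 0.0108) and with upper-quartile scaling -0.62 (adjusted p = 0.0293), while in TPM it was -0.28 (adjusted p = 0.343). Its size depended on the sham mice, since without sham replicates 4 and 5 the log2 FC was -0.14 (adjusted p = 0.520). Those mice had the most Xist of the sham group, and with Xist as a covariate the log2 FC was -0.66 (adjusted p = 0.106, limma).

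The ratio of Ckb to Ckm is taken within a library, so scaling between libraries cannot move it. It was 0.177, 0.0917, 0.0836, 0.0968 and 0.0862 in nAAC replicates 1 to 5 and 0.0352, 0.0396, 0.0350, 0.0299 and 0.0232 in sham replicates 1 to 5. Every nAAC ratio lay above every sham ratio, and nAAC replicate 1, which had the highest Ckb and the lowest Ckm of its group, lay far above the rest. The mean log2 ratio was -3.29 ± 0.45 in nAAC and -4.96 ± 0.30 in sham mice (SD, n = 5 each). The difference was 1.68 (SE 0.24), a 3.20-fold higher ratio, with p = 0.0079 in a two-sided exact permutation test, the smallest that 5 against 5 mice allow. Leaving out each mouse in turn gave differences of 1.48 to 1.75 (exact permutation p = 0.0159 each, the smallest for 4 against 5). Without sham replicates 4 and 5 the difference was 1.49 (exact permutation p = 0.0357, the smallest for 5 against 3). Taken from coverage in place of FPKM it was 1.66 (exact permutation p = 0.0079).

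**Figure D2:**
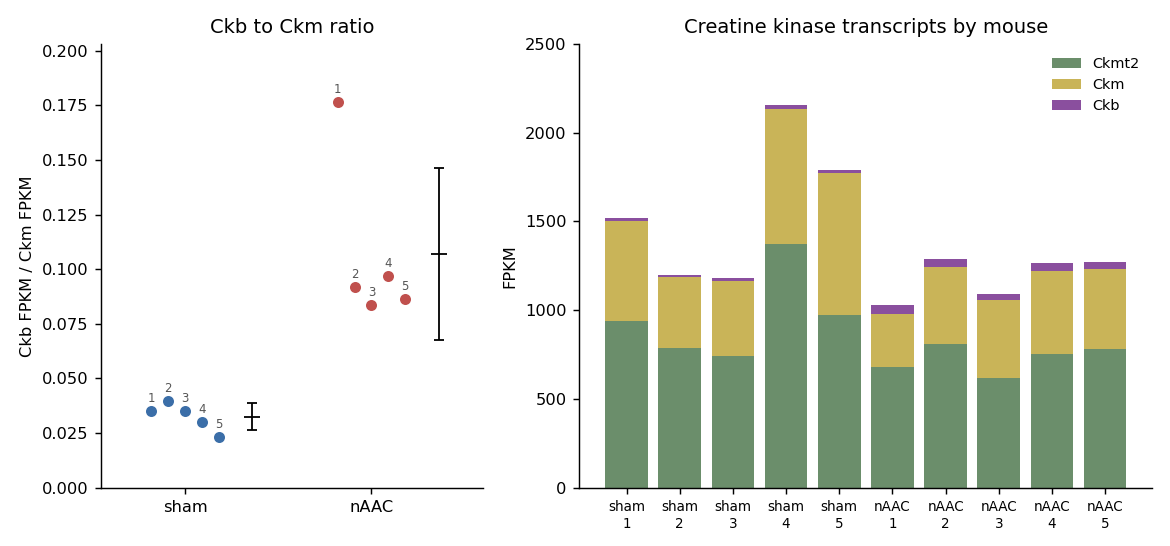
Left, ratio of Ckb FPKM to Ckm FPKM (y axis, linear from 0) in sham and nAAC mice, 1 point per mouse with its replicate number and bars for the mean ± SD (n = 5). Right, stacked FPKM of Ckmt2, Ckm and Ckb in each mouse, without Ckmt1, which is too low to be seen. The ratio is 0.0836 or more in every nAAC mouse and 0.0396 or less in every sham mouse, while Ckb remains the thinnest layer of each bar.

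Ckb stayed a minor isoform in both groups. Of the summed FPKM of the 4 creatine kinases it made up 3.07 to 5.08% in nAAC mice and 1.03 to 1.30% in sham mice. The share of Ckm was 28.8 to 39.8% in nAAC and 32.9 to 44.7% in sham mice, and that of Ckmt2 was 56.8 to 66.1% and 54.3 to 65.8%, so these shares overlapped. The summed FPKM itself was 1030 to 1286 in nAAC and 1180 to 2156 in sham mice, with the upper values again from sham replicates 4 and 5.

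Ckmt2 (ENSMUSG00000021622, chr13:91853387-91876885, minus strand) is the sarcomeric mitochondrial creatine kinase, and it did not pass the test. Its FPKM was 681, 808, 620, 753 and 780 in nAAC replicates 1 to 5 and 938, 790, 744, 1376 and 973 in sham replicates 1 to 5. The mice divided as they did for Ckm, with sham replicates 1, 4 and 5 above every nAAC mouse and sham replicates 2 and 3 within the nAAC range. The means were 729 ± 76.9 and 964 ± 249 FPKM (SD, n = 5 each), with a log2 FC of -0.38 (SE 0.18, 95% interval -0.76 to 0.01, adjusted p = 0.127, limma), or -0.60 relative to the median of all genes. As for Ckm, the log2 FC passed the test with median-ratio scaling (-0.66, adjusted p = 0.0101) and upper-quartile scaling (-0.55, adjusted p = 0.0286), while in TPM it was -0.20 (adjusted p = 0.379). Without sham replicates 4 and 5 it was -0.18 (adjusted p = 0.277), and with Xist as a covariate -0.44 (adjusted p = 0.204, limma). The ratio of Ckmt2 to Ckm in FPKM overlapped between the groups, at 1.43 to 2.30 in nAAC and 1.22 to 1.997 in sham mice.

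Ckmt1 (ENSMUSG00000000308, chr2:121357714-121363737, plus strand), the ubiquitous mitochondrial creatine kinase, was nearly absent from the LV at this depth. Its FPKM was 0.383, 0.471, 0.529, 0.201 and 0.0852 in nAAC replicates 1 to 5. In sham replicates 1 to 5 it was 0.0687, 0, 0.0822, 0.117 and 0.0632. The first 4 nAAC mice lay above every sham mouse, and nAAC replicate 5 lay within the sham range. The means were 0.334 ± 0.186 and 0.0661 ± 0.0424 FPKM (SD, n = 5 each), under the minimum of 1 FPKM for the fit over all genes. On the log2(FPKM + 1) scale the difference was 0.31 (two-sided exact permutation p = 0.0159), and with a pseudocount of 0.1 it was 1.30 (exact permutation p = 0.0159). The ratio of the mean FPKM was 5.05. A value of this size rests on few reads, whose number the tables do not give.

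Slc6a8 (ENSMUSG00000019558, chrX:73673150-73682502, plus strand), the creatine transporter, rose. Its FPKM was 56.3, 60.0, 70.9, 59.3 and 59.7 in nAAC replicates 1 to 5 and 32.7, 25.0, 25.4, 30.3 and 50.4 in sham replicates 1 to 5. The groups did not overlap, although sham replicate 5 came close to the nAAC mice. The means were 61.3 ± 5.58 and 32.8 ± 10.4 FPKM (SD, n = 5 each), which gave a log2 FC of 0.93 (SE 0.18, 95% interval 0.55 to 1.31, adjusted p = 0.00159, limma), or 0.70 relative to the median of all genes. It missed the fold threshold for a DEG and ranked 726 of 11867. That threshold was passed in TPM (log2 FC 1.10), without sham replicate 5 (1.09) and without sham replicates 4 and 5 (1.12, adjusted p = 3.89e-05, limma). Relative to the summed FPKM of the 4 creatine kinases, Slc6a8 came to 4.67 to 6.49% in nAAC mice and 1.41 to 2.81% in sham mice.

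Slc6a8 is X-linked, and the mice differed in Xist, the RNA of the inactive X chromosome of female cells. Xist was at 14.8 to 17.9 FPKM in 4 nAAC mice and at 0.0232 FPKM in nAAC replicate 2, and in sham mice it was at 10.6 FPKM in replicate 5, at 3.70 FPKM in replicate 4 and at 0.0168 FPKM or less in the other 3. The nAAC mouse with the least Xist had 60.0 FPKM of Slc6a8, within the range of the other nAAC mice. In the sham group, replicate 5 with the most Xist had the most Slc6a8. Sham replicate 4, next in Xist, had 30.3 FPKM of Slc6a8, below the 32.7 FPKM of sham replicate 1. Xist went with the group in most mice, and the part of sex in the higher Slc6a8 was not tested. With Xist as a covariate the log2 FC was 0.73 (adjusted p = 0.0248, limma) for Slc6a8 and 1.08 for Ckb (adjusted p = 0.00115).

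Ak1 (ENSMUSG00000026817, chr2:32621758-32635058, plus strand), the cytosolic adenylate kinase of muscle, did not pass the test. Its FPKM was 135, 168, 153, 157 and 144 in nAAC replicates 1 to 5. In sham replicates 1 to 5 it was 137, 114, 111, 194 and 161. The nAAC mice lay inside the sham range, which ran from sham replicate 3 to sham replicate 4. The means were 151 ± 12.8 and 143 ± 34.7 FPKM (SD, n = 5 each), with a log2 FC of 0.11 (SE 0.16, 95% interval -0.25 to 0.46, adjusted p = 0.641, limma). Its sign turned with median-ratio scaling (-0.17) and upper-quartile scaling (-0.06). Without sham replicates 4 and 5 it passed the test at 0.33 (adjusted p = 0.0353), beside a median of 0.29 over all genes in that fit.

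Ampd3 (ENSMUSG00000005686, chr7:110768206-110812405, plus strand), an AMP deaminase found in erythrocytes and heart, rose by a small amount. Its FPKM was 8.15, 8.39, 7.82, 7.94 and 8.41 in nAAC replicates 1 to 5. In sham replicates 1 to 5 it was 6.55, 7.39, 6.09, 5.09 and 6.87. The nAAC mice lay close together and above every sham mouse. The means were 8.14 ± 0.263 and 6.40 ± 0.873 FPKM (SD, n = 5 each), which gave a log2 FC of 0.31 (SE 0.11, 95% interval 0.08 to 0.55, adjusted p = 0.0409, limma). Relative to the median of all genes it was 0.09 higher, and with median-ratio scaling the log2 FC was 0.07 (adjusted p = 0.735). The call was lost in 13 of 19 alternatives, 8 of which left out 1 mouse, and in TPM it was kept (0.49, adjusted p = 0.00889). Without sham replicates 4 and 5 the log2 FC was 0.25 (adjusted p = 0.0494, limma), beside a median of 0.29 over all genes in that fit. The erythroid markers, with a summed FPKM of 3396 to 8802 in nAAC and 2292 to 8661 in sham mice, overlapped between the groups, and 0 of 5 tested passed. The part of blood cells in the higher Ampd3 was not tested. Ampd3 overlaps Rnf141 on the opposite strand, which was at 7.74 FPKM in nAAC and 6.89 FPKM in sham mice on average, and whether reads were assigned by strand is not given in the sources used here.

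**Figure D3:**
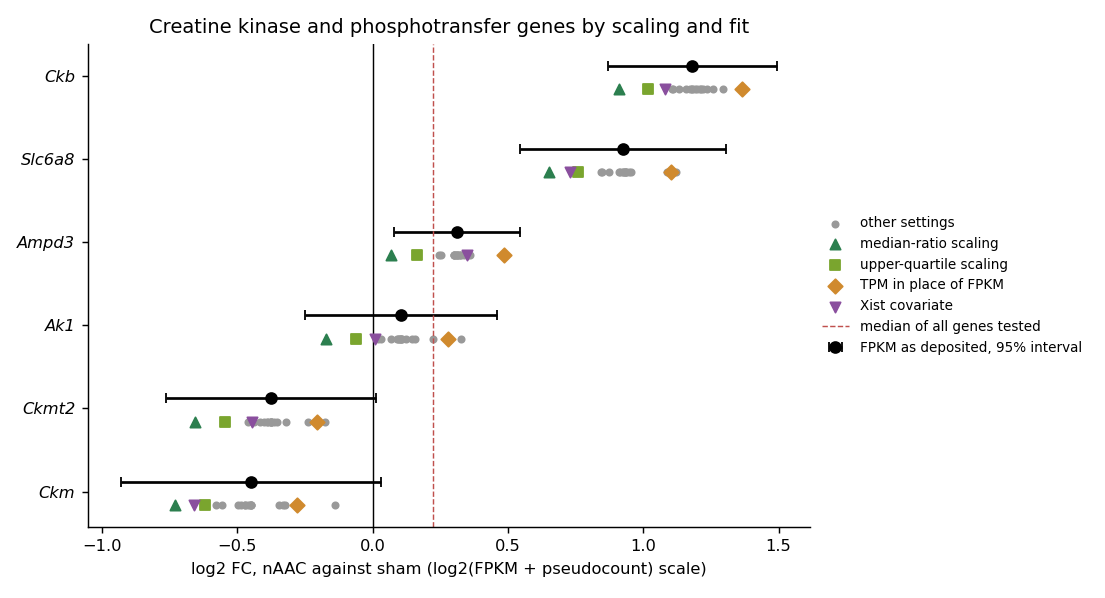
Log2 FC of the 6 tested genes, nAAC against sham (x axis, linear), with the black point and bar for FPKM as deposited and its 95% interval, colored symbols for other scalings or a covariate, grey points for the remaining settings and the dashed line for the median of all genes at 0.22. Ckb and Slc6a8 lie above 0 under every setting, Ckm and Ckmt2 lie below 0 under every setting, and Ak1 changes sign.

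The order of the FPKM levels was the same in both groups, from Ckmt2 through Ckm, Ak1, Slc6a8, Ckb and Ampd3 to Ckmt1. In each pair of neighbours the higher gene was higher in 5 of 5 mice of each group. The ranges over mice were apart for all neighbours in both groups, except those of Ckmt2 and Ckm in sham mice. The order was the same in coverage in each of the 10 mice, but the size of the gaps between genes depended on the unit. The ratio of FPKM to coverage was 2.15 times its most frequent value for Ckm, 1.86 to 1.95 times for Ckb and 1.0 times for Ckmt2, whose annotation holds 1 transcript. In coverage, the ratio of Ckmt2 to Ckm was 3.06 to 4.94 in nAAC and 2.61 to 4.29 in sham mice.

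The genes whose levels ran most like those of Ckb over the 10 mice were Sec23b (Pearson r = 0.99), Cyb561 (r = 0.99) and Slc12a4 (r = 0.99). With the group means taken out, they were Ptpmt1 (r = 0.93), Sec23b (r = 0.92) and Bnip3l-ps (r = 0.89). Those most like Ckm were Magix (r = 0.98), Mlycd (r = 0.97) and Pfkm (r = 0.97), and within groups G6pc3 (r = 0.99), Acot7 (r = 0.98) and Crat (r = 0.98). Pfkm is muscle phosphofructokinase, and Mlycd and Crat are enzymes of malonyl-CoA and acylcarnitine metabolism. These are descriptions over 10 libraries that share depth and composition, chosen as the highest of all tested genes, and carry no test.

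Of 48 further genes of high-energy phosphate and purine metabolism on 7 lists, 38 were tested, 9 rose and 3 fell in nAAC mice, beside 27.1% and 4.6% of all tested genes. These counts depended on the scaling. With median-ratio scaling 4 rose and 7 fell, beside 13.2% and 12.1% of all genes in that fit. With upper-quartile scaling 8 rose and 7 fell, beside 17.7% and 8.39%, and in TPM 14 rose and 0 fell, beside 40.9% and 2.96%. The sham mice mattered too, since without sham replicates 4 and 5 the counts were 15 and 4, beside 43.5% and 5.21%. In creatine synthesis, Gamt, which makes creatine from guanidinoacetate, rose (log2 FC 0.57, adjusted p = 0.0243, limma), while Gatm, the enzyme before it, was at 0.14 (adjusted p = 0.484). Gamt was low, at 3.11 ± 0.706 FPKM in nAAC and 1.79 ± 0.662 FPKM in sham mice (SD, n = 5 each), and lost the call with median-ratio scaling (0.38, adjusted p = 0.0861). Of the other adenylate kinases 0 of 4 tested passed, and the most abundant of them, Ak3 and Ak6, had log2 FC of 0.03 and -0.04. The median of these 4 was 0.04.

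Among the enzymes around AMP, Ampd2, the other AMP deaminase expressed in the LV, rose from 1.42 ± 0.147 FPKM in sham to 2.71 ± 0.357 FPKM in nAAC mice (SD, n = 5 each, log2 FC 0.61, adjusted p = 6.5e-04, limma). No other of the 4 tested genes of this list passed. Ampd1, chosen after its values were seen, was at 0.0597 FPKM or less in every mouse. Ampd3 accordingly made up 70.9 to 78.1% of the summed FPKM of the 3 AMP deaminases in nAAC mice and 81.0 to 82.7% in sham mice, with no overlap. Of purine salvage enzymes and nucleotidases 3 of 10 rose. These were the cytosolic nucleotidases Nt5c2 (log2 FC 0.98, adjusted p = 0.0025) and Nt5c (0.66, adjusted p = 0.0459), and the purine nucleoside phosphorylase Pnp (0.54, adjusted p = 0.0093). Of these only Nt5c2 kept the call with median-ratio scaling (0.73, adjusted p = 0.0255).

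Among nucleoside diphosphate kinases, which pass phosphate between nucleotides, 1 of 6 rose. This was Nme1, from 4.16 ± 1.97 FPKM in sham to 9.02 ± 1.79 FPKM in nAAC mice (SD, n = 5 each, log2 FC 1.01, adjusted p = 0.00288, limma). Nme1 and its neighbour Nme2 are closely similar in sequence, and how reads shared by them were counted is not given in the sources used here. On the list of mitochondrial ADP, ATP and phosphate exchange, 1 of 6 rose and 2 fell. The ADP/ATP carrier Slc25a5 rose (log2 FC 0.59, adjusted p = 0.00978), the phosphate carrier Slc25a3 fell (-0.50, adjusted p = 0.0282) and the outer membrane channel Vdac3 fell (-0.40, adjusted p = 0.0269). With median-ratio scaling Slc25a5 lost the call (0.31, adjusted p = 0.129), and in TPM both falls lost it (-0.33, adjusted p = 0.123, and -0.23, adjusted p = 0.155). The median log2 FC of this list was -0.16.

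Of the subunits of AMPK, the kinase that senses AMP, 2 of 6 rose and 1 fell. The beta subunits moved in opposite directions. Prkab2 rose from 5.79 ± 1.04 FPKM in sham to 16.6 ± 7.68 FPKM in nAAC mice (SD, n = 5 each, log2 FC 1.30, adjusted p = 7.07e-04, limma) and Prkab1 fell from 14.7 ± 2.95 to 9.55 ± 1.41 FPKM (log2 FC -0.57, adjusted p = 0.0105). The gamma subunit Prkag2 rose (0.54, adjusted p = 0.00206). With median-ratio scaling Prkag2 lost the call (0.29, adjusted p = 0.0599), and in TPM Prkab1 lost it (-0.42, adjusted p = 0.0650).

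**Figure D4:**
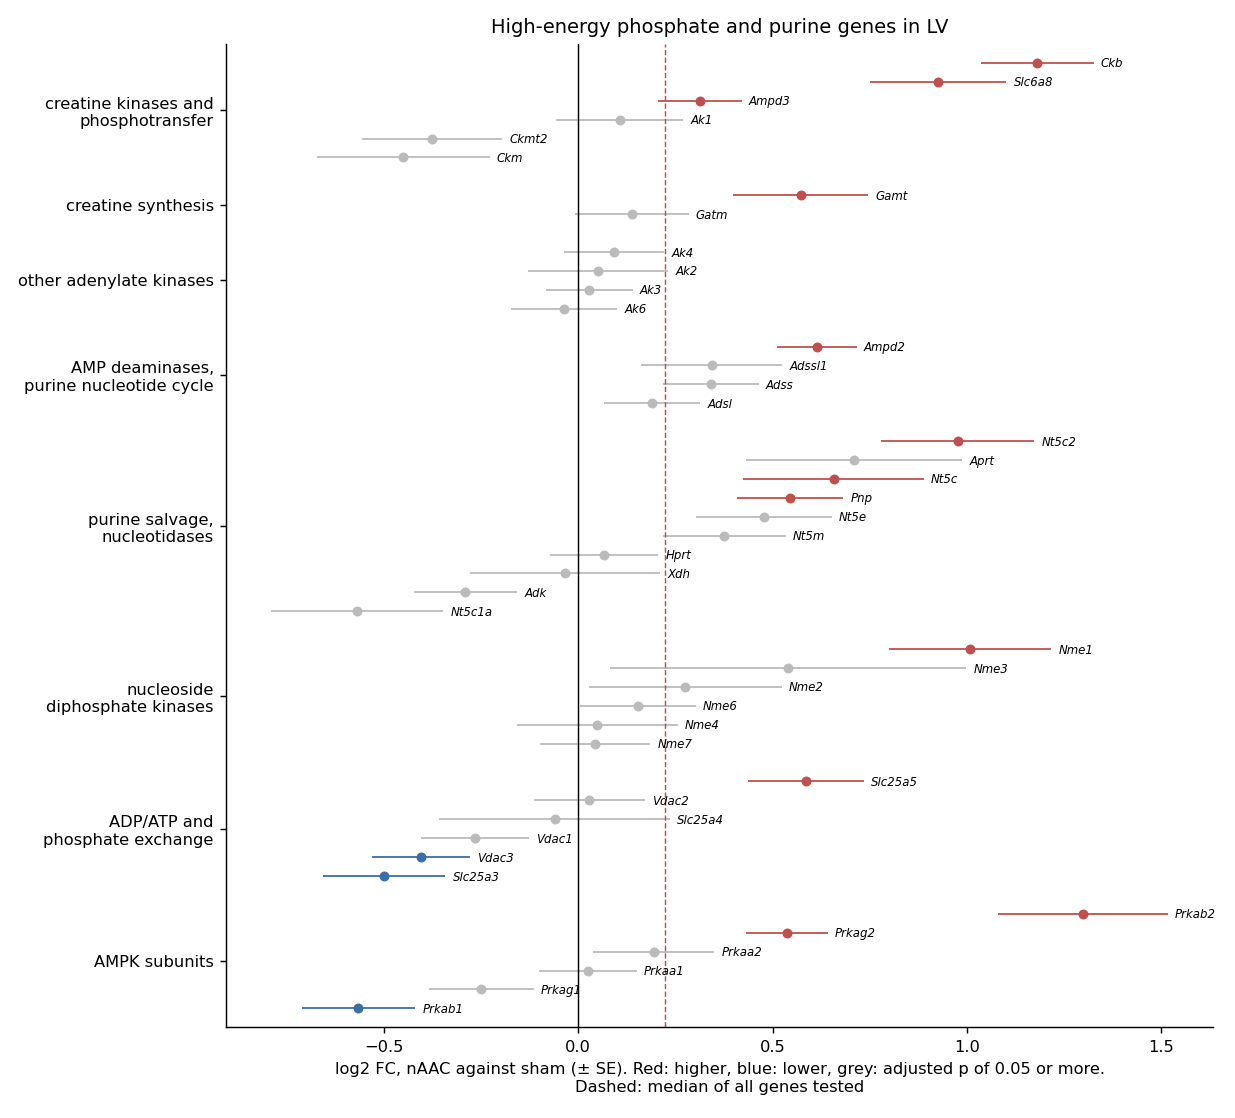
Log2 FC, nAAC against sham (x axis, linear, ± SE), of the 6 tested genes and of the 38 tested genes on 7 lists of high-energy phosphate and purine metabolism, in red for adjusted p below 0.05 and higher, in blue for lower and in grey for the rest. Prkab2, Ckb and Nme1 lie furthest right among the called genes, and the dashed line is the median of all tested genes at 0.22.

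Markers of some cell types moved with the groups. The counts below stand beside 27.1% of all tested genes that rose and 4.6% that fell. The skeletal muscle markers, Mybpc2 included, summed to 11.04 to 32.3 FPKM in nAAC and 2.47 to 5.27 FPKM in sham mice. The higher sum lay in Mybpc2, which alone was at 10.3 to 31.4 FPKM in nAAC mice. Of those too low to test, Tnnt3 lay above and Tnni2 below the sham mice without overlap, named after their values were seen. The part of the skeletal muscle markers in the results was not tested. Of the cardiomyocyte markers 3 of 12 rose and 2 fell, with a median log2 FC of 0.04, and their summed FPKM was 17662 to 27114 in nAAC and 18953 to 34028 in sham mice. Of the smooth muscle and mural markers 6 of 9 rose, with a summed FPKM of 1063 to 1388 in nAAC and 524 to 802 in sham mice. Des, which is not particular to mural cells, made up most of this sum and of its difference. It was at 897 ± 155 FPKM in nAAC and 364 ± 131 FPKM in sham mice, so the sum does not stand for mural cells alone. The next most abundant, Rgs5, was at 163 ± 39.0 and 163 ± 40.0 FPKM (SD, n = 5 each). Of the fibroblast markers 7 of 8 rose, with a summed FPKM of 542 to 961 in nAAC and 361 to 393 in sham mice. Endothelial markers rose in 2 of 8 and macrophage and leukocyte markers in 2 of 8 tested, each near the share of all genes. Apart from the skeletal muscle list with Myh4, none of these markers was listed at 0 in all mice. Their part in the higher Ckb and Slc6a8 was not tested. The glial and neural markers, from tissue in which Ckb is abundant, summed to 2.47 to 5.76 FPKM in nAAC and 3.24 to 4.40 FPKM in sham mice. Within this list, with both genes chosen after their values were seen, Tubb3 (a neuronal tubulin) was at 1.48 ± 0.790 FPKM in nAAC and 0.139 ± 0.0702 FPKM in sham mice and Dbh (an enzyme of noradrenaline synthesis) at 0.0968 ± 0.0448 and 1.10 ± 0.252 FPKM (SD, n = 5 each), without overlap. The part of these cells in the higher Ckb was not tested. The atrial markers summed to 8.94 to 235 FPKM in nAAC and 10.3 to 53.8 FPKM in sham mice.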

How the data were processed

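Total RNA of LV tissue from 5 nAAC mice and 5 sham mice was extracted with Trizol and prepared with a NEBNext Ultra kit, 1 library per mouse. The authors deposited 1 gene table per mouse, on build mm10 per the labels. In them the deposited coverage is a mean read depth over each gene, the deposited FPKM is corrected by the authors for length and library depth, and the deposited TPM is FPKM brought to a fixed total. The aligner, the counting tool and the use of strand are not given in the sources used here. No read counts could be recovered, so the commonest FPKM to coverage ratio of a library stood in for its depth, a value shared by 15.0 to 16.6% of genes at 1 FPKM or more.

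Rows sharing a gene ID were summed. Groups came from the labels. The test was limma 3.58.1 (R 4.3.3) with a mean-variance trend on log2(FPKM + 1) values of the 11867 of 55401 genes that averaged 1 FPKM or more, with Benjamini-Hochberg adjustment over all of them. Genes with an adjusted p below 0.05 rose or fell, and DEGs also had an absolute log2 FC above 1. The Ckb to Ckm ratio and Ckmt1 were tested by two-sided exact permutation (252 orders). The fit was tried on simulated data with independent noise and 200 genes changed, as many up as down. These data lacked the shift of all genes and the sham mice that stood apart, so they do not test the calls given here. P values set the group difference against the spread between these mice. Principal components were taken from log2 values.

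The named genes are the 7 members, the genes of each pathway list past the threshold or else its 2 most abundant, the 2 most abundant tested markers where values are needed, and the 3 genes most correlated with Ckb and with Ckm (mean log2 value of at least 2). The members and lists were chosen with earlier results of these data known. The alternatives tried were scaling by median ratio, by upper quartile and without mitochondrial genome genes, TPM, coverage for the ratio, no filter, a pseudocount of 0.1, a replicate block, Xist as a covariate and leaving out each mouse. Leaving out sham replicates 4 and 5 together was added after seeing the data. Gene coordinates matched GENCODE M21 for 99.3% of shared genes, and promoter sequences are from RefSeq (GRCm38.p6). Figures were drawn with Python 3.11.15 and matplotlib 3.10.9.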

Additional observations from a re-analysis of the deposited data

Results flagged for a closer look

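Of 20 groups of 5 mice examined for a mouse standing apart from its group, 4 held such a mouse, where chance alone would give about 1. The groups are not independent, since Ckm is part of the Ckb to Ckm ratio and several flags fall on nAAC replicate 1. The 4 are therefore not read as an excess over chance. In each the gap to the nearest mouse took up more than 0.71 of the whole range of the group on the scale tested.

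In nAAC replicate 1 Ckm was at 296 FPKM, the lowest of its group, with a gap of 0.84 of the range. The Ckb to Ckm ratio of the same mouse was 0.177, the highest of its group, with a gap of 0.80 of the range. The same library had the highest estimated depth, 6.82 gigabases, with a gap of 0.80 of the range. Without this mouse the log2 difference of the ratio between the groups is the lowest of the leave-one-out range, at 1.48. The part of depth in these values was not tested.

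Slc6a8 was at 70.9 FPKM in nAAC replicate 3, the highest of its group, with a gap of 0.72 of the range.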

How the results depend on the processing

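Ckb and Slc6a8 rose in all 19 alternatives run for each, with log2 FC of 0.91 to 1.36 and 0.65 to 1.12, and Ckmt1 stayed past its threshold in all 17. Median-ratio scaling gave past-threshold values for Ckm (-0.73) and Ckmt2 (-0.66), as did upper-quartile scaling (-0.62 and -0.55), and these scalings reversed Ak1 (-0.17 and -0.062). The call of Ampd3 was lost with median-ratio scaling (0.066), upper-quartile scaling (0.16), scaling without mitochondrial genome genes (0.30), the replicate block (0.31) and the Xist covariate (0.35), and in 8 of the 10 fits without a mouse, over all of which it was 0.24 to 0.36. Leaving out sham replicates 4 and 5 put Ak1 past the threshold (0.33) and raised the number of genes past it from 3757 to 5793. That number was 5687 in TPM and 1983 with the Xist covariate, and DEGs numbered 701, against 1140 in TPM and 1121 with a pseudocount of 0.1. Without 1 mouse at a time there were 2860 to 4560 genes past the threshold and 666 to 787 DEGs. Of these genes 85.5% were higher in nAAC mice as deposited, 52.2% with median-ratio scaling, where the median of all genes was at 0.00, and 67.9% with upper-quartile scaling. For DEGs these shares were 84.9%, 64.3% and 74.2%. The cause was not tested. Deviations of same-numbered nAAC and sham mice from their group means were correlated at r of -0.32 to 0.19. With no reference for such values, they cannot settle whether the numbers pair the mice. With the replicate block the ratio difference was 1.68 with an exact sign-flip p of 0.0625, the smallest that 5 pairs allow. The block left 3426 genes past the threshold. Depth is unknown in reads, so no counting error could be given for low genes such as Ckmt1.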
